A study of Mus with 8 samples.

Results

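The C/EBP transcription factors were followed here as 6 genes, Cebpa, Cebpb, Cebpd, Cebpg, Cebpz and Ddit3, of the 24013 genes in the deposited count table. They were chosen by gene name, and each was found in the table by its NCBI gene ID. All 6 passed the filter on low counts that left 13339 genes for testing. Another family gene, Cebpe, had 0 counts in 7 libraries and 1 count in the remaining one, so it was not tested.

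RNA was sequenced from 3T3-L1 cells, a mouse preadipocyte line that turns into fat-storing adipocytes when given a hormone cocktail. C cells carried a scrambled shRNA and P cells a single Prep1 shRNA, each delivered by a pLKO.1-type lentivirus and selected with puromycin, so that all libraries came from virus-infected cells of 1 line. Prep1, encoded by Pknox1, is a TALE homeodomain transcription factor. C and P cells were collected at day −2, in calf serum and without hormones, and at day 1, 1 day after the change to fetal bovine serum with 1 µM dexamethasone, 0.5 mM IBMX and 1 µg/ml insulin. Each of the 4 conditions had 2 replicas. The study calls these biological, but how separate the cultures were is not described, and the p-values measure the spread between these samples only. Hormones, serum and time after confluence changed together between the days and cannot be told apart.

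C/EBP proteins bind DNA as pairs joined by a leucine zipper. In the textbook course of adipogenesis, C/EBPβ and C/EBPδ are induced first, by cAMP and glucocorticoid signals, and then switch on C/EBPα and PPARγ, which keep each other active and drive the adipocyte genes. C/EBPγ, a short member without an activation domain, and CHOP, the product of Ddit3, pair with the other members and modify or block their binding, and CHOP is a hallmark of endoplasmic reticulum and amino acid stress. Cebpz belongs to the set by name only: its product is a nucleolar protein of ribosome assembly, not a leucine zipper factor. The activating and inhibiting forms of C/EBPβ are translated from a single mRNA, so read counts cannot separate them.

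The libraries held 20428816 to 27614353 counts, and levels are given as CPM, counts divided by the library size after TMM scaling. Pknox1 stood at 28.1 and 26.5 CPM in C cells and at 17.3 and 18.3 CPM in P cells at day −2, and at 38.1 and 36.5 against 23.6 and 23.8 CPM at day 1 (log2 ratios −0.62 and −0.65, edgeR adjusted p = 0.0558 and 0.0575). Preadipocyte and fibroblast markers were present (9 of 10 above 3 counts in every library). Their summed level was 78403 CPM in the first P replica of day −2 and 16127 to 26005 CPM in the other 7 libraries. Dlk1, Ly6a and Cd34 of this list had lower means in P than in C cells of day −2, and the other markers higher ones. Most of the sum in the first P replica of day −2 came from the collagen genes Col1a1 (23560 CPM), Col1a2 (28501 CPM) and Col3a1 (15766 CPM). That first replica also had the lowest scaling factor (0.837), and ratios of the 6 genes that use P day −2 are therefore also given without each of its replicas where they moved most. Summed markers of mature adipocytes were 0.359 and 0.399 CPM in C cells and 5.65 and 2.68 CPM in P cells at day −2, and 1.26 and 0.796 against 72.6 and 67.4 CPM at day 1. In P cells of day −2 most of this sum was Plin1 (mean 3.26 CPM). Each other marker had a mean there between 0.0535 CPM (Lep) and 0.374 CPM (Cidec). Summed markers of leukocytes, epithelium, endothelium and muscle lay at 3.20 to 7.73, 0.187 to 3.31, 0.239 to 1.33 and 0.654 to 6.66 CPM. In bulk RNA, fewer cells expressing a gene and less RNA per cell cannot be told apart.

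The activating members changed most in C cells, where Cebpa, Cebpb and Cebpd all rose from day −2 to day 1, and in P cells the same 3 genes were already higher than in C cells at day −2. At day 1 no member was called between P and C cells, although Ddit3 passed the adjusted p threshold alone. Ddit3 showed another course: it was level across the days in C cells, and in P cells it fell from the highest to the lowest of the 4 conditions. A gene was called changed when edgeR's quasi-likelihood test gave a Benjamini-Hochberg adjusted p under 0.1 over all tested genes and the ratio was over 2 or under 0.5.

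Cebpb, the early activator, stood at 94.0 and 109 CPM in the C replicas of day −2 and at 259.5 and 169 CPM in the P replicas. At day 1 it stood at 317 and 307 CPM in C cells and 306 and 253 CPM in P cells. The C libraries of day −2 were the lowest and did not overlap any other condition, while the other 6 libraries lay between 169 and 317 CPM. From day −2 to day 1, Cebpb rose 3.07-fold in C cells (log2 ratio 1.62, SE 0.23, edgeR adjusted p = 0.00352). In P cells the log2 ratio was 0.38 (95% interval −0.16 to 0.92, edgeR adjusted p = 0.263). At day −2 it was 2.11-fold higher in P than in C cells (log2 ratio 1.08, SE 0.23, edgeR adjusted p = 0.0453). That last call is a borderline one: without the first P replica the log2 ratio was 0.75, under the size threshold, and without the second it was 1.35.

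Cebpd, the other early activator, stood at 6.65 and 9.04 CPM in C cells and at 64.5 and 32.9 CPM in P cells at day −2. The day 1 values were 66.5 and 61.2 CPM in C cells and 71.4 and 65.7 CPM in P cells. The C libraries of day −2 were again the lowest, and the first P replica of that day lay within the range of the induced C cells. Cebpd rose 8.14-fold in C cells (log2 ratio 3.03, SE 0.34, edgeR adjusted p = 0.00137), and at day −2 it was 6.20-fold higher in P than in C cells (log2 ratio 2.63, SE 0.34, edgeR adjusted p = 0.00819). In P cells its log2 ratio over the days was 0.49 (95% interval −0.25 to 1.24, edgeR adjusted p = 0.293). Without the first P replica of day −2 this became 1.05 and was called (edgeR adjusted p = 0.00114), and without the second it was 0.09.

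Cebpa, the later activator that works with PPARγ, had the largest log2 ratio of the 6 genes over the days in C cells. In C cells of day −2 it had 19 counts in each replica, or 0.757 and 0.842 CPM (exact 95% counting intervals 0.456 to 1.18 and 0.507 to 1.31 CPM), and these intervals cover counting error only. P cells of that day had 141 and 95 counts, or 7.51 and 3.39 CPM. At day 1 it reached 16.4 and 16.9 CPM in C cells and 17.5 and 19.1 CPM in P cells. The P libraries of day −2 thus lay between uninduced and induced C cells and overlapped neither. Cebpa rose 20.9-fold in C cells (log2 ratio 4.38, SE 0.41, edgeR adjusted p = 6.9e-04) and 3.39-fold in P cells (log2 ratio 1.76, SE 0.35, edgeR adjusted p = 0.0149). The rise in P cells was called without either P replica of day −2, but its size depended on them, with a log2 ratio of 2.43 without the first and 1.295 without the second. At day −2 it was 6.76-fold higher in P than in C cells (log2 ratio 2.76, SE 0.41, edgeR adjusted p = 0.0131).

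**Figure D1:**
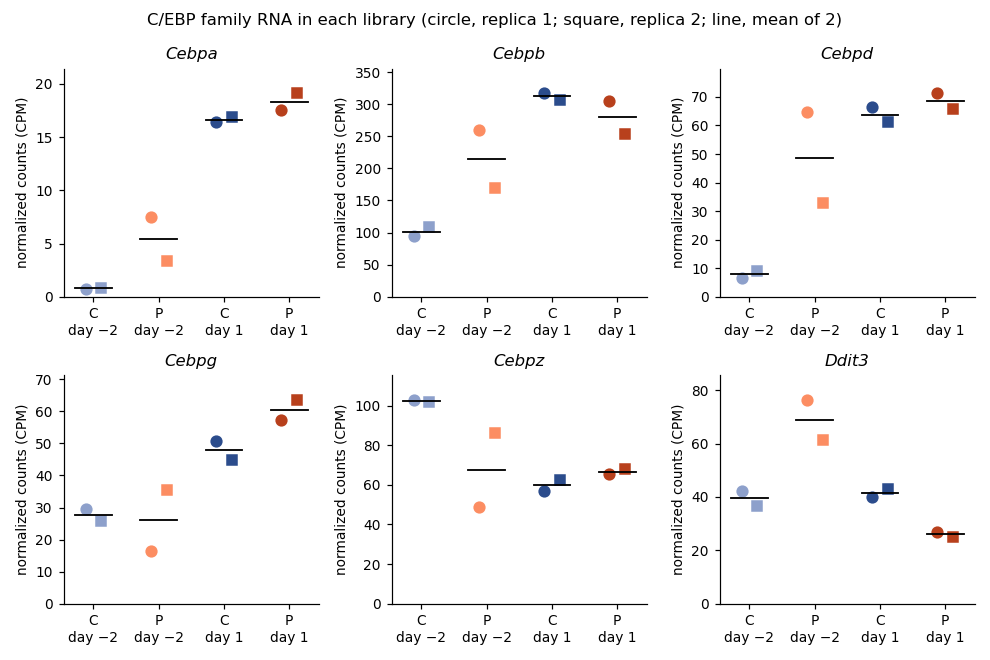
Level of each of the 6 genes as normalized counts (CPM, linear axes from 0 and scaled per gene) in the 4 conditions, with a circle for replica 1, a square for replica 2 and a line at the mean of the 2. Cebpa, Cebpb and Cebpd are lowest in C cells of day −2, and Ddit3 is highest in P cells of day −2 and lowest in P cells of day 1.

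Cebpg, the heterodimer partner without an activation domain, stood at 29.5 and 25.7 CPM in C cells of day −2 and at 16.5 and 35.6 CPM in P cells of that day. At day 1 it stood at 50.7 and 44.9 CPM in C cells and at 57.4 and 63.6 CPM in P cells. The day 1 libraries were all above the day −2 libraries, and the P replicas of day −2 enclosed both C values of that day. In P cells Cebpg rose 2.32-fold (log2 ratio 1.21, SE 0.33, edgeR adjusted p = 0.0443), but without the first P replica of day −2 the log2 ratio was 0.76, below the size threshold, and without the second it was 1.89. In C cells the log2 ratio was 0.79 (95% interval 0.00 to 1.58, edgeR adjusted p = 0.126). Leaving out either P replica of day 1 also ended the call in P cells (edgeR adjusted p = 0.157 and 0.206).

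Ddit3, the stress-responsive partner that blocks DNA binding by the activators, stood at 42.2 and 36.6 CPM in C cells of day −2 and at 76.4 and 61.4 CPM in P cells. At day 1 it stood at 39.98 and 43.2 CPM in C cells and at 27.0 and 25.1 CPM in P cells. Both P values of day −2 were above, and both P values of day 1 below, all 4 C values. Ddit3 fell in P cells, with a log2 ratio of −1.40 (SE 0.17, edgeR adjusted p = 0.00234). In C cells the log2 ratio was 0.08 (95% interval −0.32 to 0.47, edgeR adjusted p = 0.772). Between P and C cells it was 0.80 at day −2 (SE 0.17, edgeR adjusted p = 0.0436) and −0.67 at day 1 (SE 0.17, edgeR adjusted p = 0.0925), both under the adjusted p threshold but short of the 2-fold size. Without the first or second P replica of day −2, the day −2 value was 0.65 or 0.95, and the fall in P cells was −1.25 or −1.54.

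Cebpz stood at 103 and 102 CPM in C cells and at 48.8 and 86.1 CPM in P cells at day −2. The day 1 values were 57.1 and 62.4 CPM in C cells and 65.2 and 68.2 CPM in P cells. The uninduced C cells were highest, and the P replicas of day −2 enclosed all 4 values of day 1. Its log2 ratio over the days in C cells was −0.78 (SE 0.25, edgeR adjusted p = 0.0645), past the adjusted p threshold but not the size threshold. P cells relative to C cells had a log2 ratio of −0.60 at day −2 (95% interval −1.20 to 0.00, edgeR adjusted p = 0.198). It was −0.24 without the first P replica and −1.07 without the second, and in the latter case it passed the test (edgeR adjusted p = 1.0e-04).

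Over the 6 genes, 3 were called higher at day 1 in C cells, where 10.7% of all tested genes were called higher and 20.4% were called in either direction. In P cells 2 were called higher (Cebpa and Cebpg) and 1 lower (Ddit3), against 18% of all genes called in either direction, 7.65% higher and 10.4% lower. Between P and C cells at day −2, 3 were called, all higher, against 4.83% of all genes called higher, 2.15% lower and 6.98% in either direction. At day 1, 0 were called by edgeR or by DESeq2, against 4.06% of all genes (1.83% higher, 2.23% lower), and 1 (Ddit3) had an unadjusted p under 0.05. The replicas of the compared conditions did not overlap for 5, 4, 5 and 5 of the 6 genes in these comparisons, in the order given, against 77.7%, 60.6%, 53.8% and 60.5% of all tested genes, so that not overlapping was common among all genes. The comparisons share conditions, so their calls are not separate pieces of evidence.

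The calls between P and C cells at day −2 depended on individual libraries. Cebpa was no longer called without the first C replica of day −2 (edgeR adjusted p = 0.161) or the second (edgeR adjusted p = 0.145), and Cebpd without the first (edgeR adjusted p = 0.119). Cebpb was not called without either of them (edgeR adjusted p = 0.342 and 0.257), nor without any single day 1 library (edgeR adjusted p between 0.103 and 0.110). Leaving out the first P replica of day −2 gave log2 ratios of 2.10 for Cebpa and 2.08 for Cebpd, and leaving out the second gave 3.23 and 3.04. In all these fits the direction was higher in P cells. The rise of Cebpa, Cebpb and Cebpd in C cells and the fall of Ddit3 in P cells were called under all 19 alternatives that were run.

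**Figure D2:**
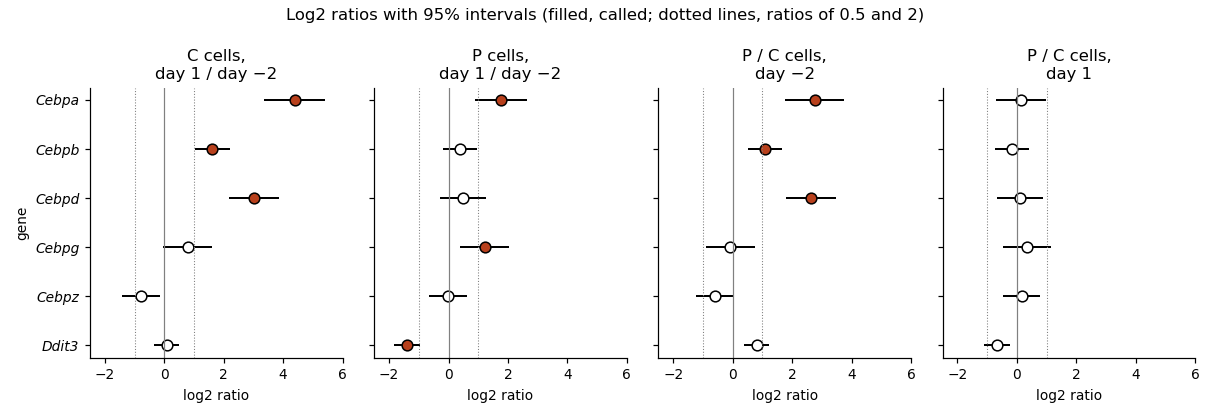
Log2 ratio of each gene in the 4 comparisons, with 95% intervals from edgeR's fit, filled points where the gene was called, and dotted lines at ratios of 0.5 and 2. Cebpa, Cebpb and Cebpd lie to the right in C cells over the days and in the day −2 panel of P over C cells, and all intervals except that of Ddit3 include 0 in P against C cells at day 1.

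Whether induction acted unequally on P and C cells was tested directly, as an interaction, with an adjusted p under 0.1 and no size threshold. It was called for 3 of the 6 genes, all towards a smaller or more negative response in P cells, where 2.37% of all tested genes were called and 1.93% were called in that direction. The log2 difference was −2.62 for Cebpa (SE 0.53, edgeR adjusted p = 0.0836), −2.53 for Cebpd (SE 0.45, edgeR adjusted p = 0.0617) and −1.48 for Ddit3 (SE 0.24, edgeR adjusted p = 0.0445). For Cebpb it was −1.24 (SE 0.32, edgeR adjusted p = 0.159), for Cebpg 0.42 (SE 0.47, edgeR adjusted p = 0.608) and for Cebpz 0.76 (SE 0.36, edgeR adjusted p = 0.371). These calls held only when all 6 libraries other than the P libraries of day −2 were in the fit. Leaving out any 1 of those 6, namely either replica of C cells at day −2, C cells at day 1 or P cells at day 1, took the edgeR adjusted p of all 3 genes to between 0.168 and 0.413.

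The 4 conditions could be ordered by level for some of the genes. For Cebpa, C cells of day −2 were lowest and P cells of day −2 came next, with both the step between them and the step up to C cells of day 1 passing the test (edgeR adjusted p under 0.1), while the day 1 conditions did not differ beyond their spread. For Cebpb and Cebpd only the first step, from C to P cells at day −2, passed. For Ddit3, P cells of day 1 were lowest and P cells of day −2 highest, and the C conditions between them did not differ from each other. No neighbouring step passed for Cebpg or Cebpz. In all, 6 of 18 neighbouring steps passed. Over all genes, the share at an adjusted p under 0.1 was 11.3% between P and C cells of day −2 and 6.15% at day 1, 35.6% over the days in C cells and 31.4% in P cells, 35.9% between uninduced P and induced C cells and 36.2% between induced P and uninduced C cells. Uninduced P cells and induced C cells, compared directly, had log2 ratios of −1.62 for Cebpa (edgeR adjusted p = 0.0166), −0.54 for Cebpb (edgeR adjusted p = 0.125) and −0.39 for Cebpd (edgeR adjusted p = 0.394), where 20.6% of all tested genes were called and 9.5% were called lower. Cebpa was called there, as lower in uninduced P cells.

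The balance between members was followed as the ratio of their counts within each library, which does not depend on library scaling. Counts were not divided by transcript length, so only the change of a ratio from its mean in C cells of day −2 is given, with no test. The ratio of Cebpa to Cebpb was higher by 1.88 and 1.35 log2 units in the P libraries of day −2, by 2.71 and 2.81 in C cells of day 1 and by 2.86 and 3.26 in P cells of day 1. The ratio of Cebpd to Cebpb was higher by 1.70 and 1.34 in P cells of day −2, by 1.45 and 1.38 in C cells of day 1 and by 1.61 and 1.76 in P cells of day 1. The Cebpd to Cebpb balance of uninduced P cells thus overlapped that of the induced cells, whereas their Cebpa to Cebpb balance lay below it. The ratio of the blocking partner Ddit3 to Cebpb differed from the same mean by −0.40 and −0.10 in P cells of day −2, a range that overlapped the C replicas of that day (0.21 and −0.21). It was −1.62 and −1.46 in C cells of day 1 and −2.14 and −1.97 in P cells of day 1, so that this ratio was low in all 4 induced libraries although Ddit3 itself was level in C cells.

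**Figure D3:**
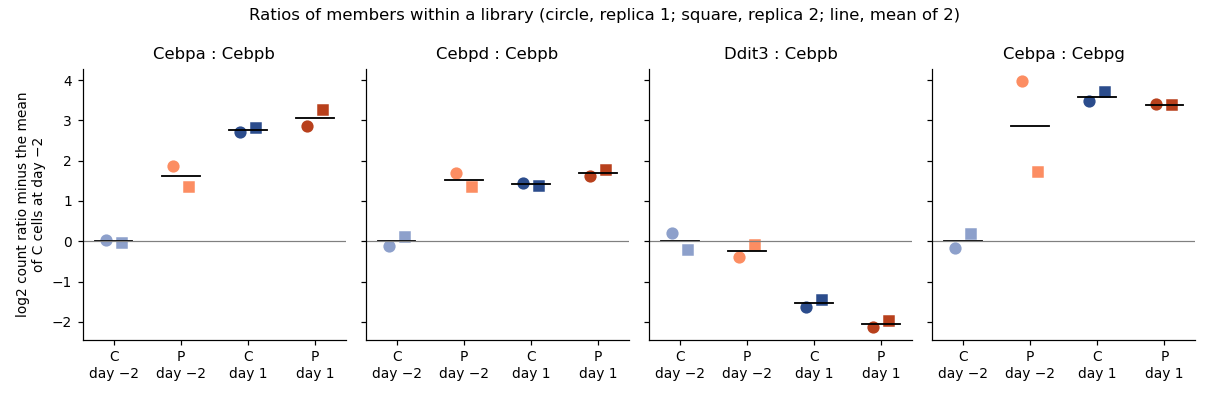
Log2 ratio of counts between pairs of members within each library, relative to its mean in C cells of day −2, with a circle for replica 1, a square for replica 2 and a line at the mean of the 2. The ratio of Cebpa to Cebpb rises in steps from uninduced C cells through uninduced P cells to the induced cells, and the ratio of Ddit3 to Cebpb is lowest in P cells of day 1, at −2.14 and −1.97.

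The spread between replicas was uneven. Over 5600 genes with a mean log2 CPM above 5, the SD of the log2 difference between the 2 replicas was 0.795 in P cells of day −2 and 0.121 to 0.261 in the other 3 conditions. In P cells of day −2 the second replica differed from the first by −1.13 for Cebpa, −0.97 for Cebpd, −0.62 for Cebpb and −0.32 for Ddit3 on the log2 CPM scale. The differences were 1.11 for Cebpg and 0.82 for Cebpz, in the other direction. The first replica therefore had more of the activators and less of Cebpg and Cebpz than the second. It was also the one with the high fibroblast marker sum, which came mostly from collagen genes. The part of this library in the results was not tested beyond leaving it out.

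**Figure D4:**
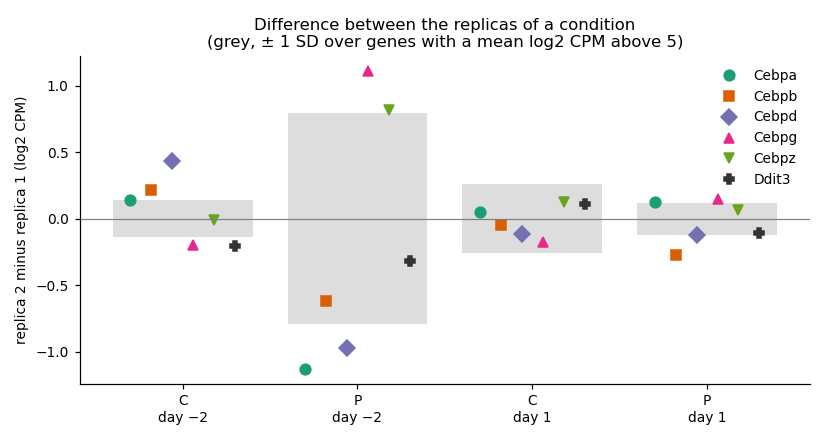
Log2 CPM of the second replica minus the first for each gene in the 4 conditions, over a grey band of ± 1 SD over 5600 genes with a mean log2 CPM above 5. The differences in P cells of day −2 run from −1.13 for Cebpa to 1.11 for Cebpg, where the SD over genes is 0.795.

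Related gene lists were then read in the same fits, each by how many of its tested genes were called. The list of adipocyte genes that C/EBP proteins bind or activate in textbook accounts, Pparg included, had 20 tested genes. Of these, 6 were called higher and 0 lower in P than in C cells at day −2, against 4.83% and 2.15% of all genes. At day 1, 10 were called higher and 1 lower, against 1.83% and 2.23%. With genes that fell under 10 counts in some library dropped, 5 of the list were called at day 1. The median log2 ratio of the list was 0.15 at day −2 and 1.39 at day 1, against 0.01 for all genes at both days. Lpl, the lipase that frees fatty acids from circulating triglyceride, stood at 58.6 and 57.7 CPM in C cells and at 183 and 200.1 CPM in P cells at day −2 (log2 ratio 1.72, SE 0.14, edgeR adjusted p = 0.00200). Fabp4, a fatty acid carrier of adipocytes, stood at 2.07 and 2.35 CPM against 28.4 and 19.8 CPM (log2 ratio 3.45, SE 0.30, edgeR adjusted p = 0.00242). At day 1 Adipoq, which encodes the hormone adiponectin, stood at 0.118 and 0.0398 CPM in C cells and at 19.4 and 16.1 CPM in P cells (edgeR adjusted p = 8.5e-04), with C cells at or under the limit of 3 counts per library. Gpd1, which supplies glycerol 3-phosphate for triglyceride, stood at 2.71 ± 0.235 CPM in C cells and at 54.3 ± 6.11 CPM in P cells, as mean ± SD of 2 replicas (log2 ratio 4.32, SE 0.24, edgeR adjusted p = 8.5e-04). Cebpa at day 1 had a log2 ratio of 0.14 in the same comparison (95% interval −0.66 to 0.93, edgeR adjusted p = 0.924). Scd1, a fatty acid desaturase, was the 1 gene of the list called lower in P cells at day 1, at 98.8 and 93.6 CPM against 208 and 187 CPM (log2 ratio −1.04, SE 0.16, edgeR adjusted p = 0.0194). The sums of mature adipocyte markers given above were also higher in P than in C cells at both days, at day −2 mostly through Plin1. Those markers share genes with this list, and the part of differentiated cells in the list counts was not tested.

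Over the days, 5 of the 20 adipocyte genes rose and 2 fell in C cells, while 14 rose and 0 fell in P cells, where 7.65% of all genes were called higher. Some of the 14 had few reads, such as Slc2a4 and Pck1, with mean counts of 5.25 and 4.25 over the 8 libraries. With genes that fell under 10 counts in some library dropped, 7 were called in P cells. Irs2, an adaptor of the insulin receptor, rose in C cells from 58.9 and 62.9 to 162 and 164 CPM (log2 ratio 1.42, SE 0.14, edgeR adjusted p = 8.6e-04). Fabp4 fell there to 0.789 and 1.39 CPM (log2 ratio −1.02, SE 0.32, edgeR adjusted p = 0.0602). Pparg, the partner of Cebpa in late adipogenesis and named here after its values were seen, stood at 19.2 and 19.5 CPM in C cells and 12.1 and 21.2 CPM in P cells at day −2. At day 1 it stood at 41.2 and 34.2 CPM in C cells and 63.5 and 60.5 CPM in P cells. The P values of day −2 enclosed those of C cells. At day 1 both P values were above the C values, with a log2 ratio of 0.72 (edgeR adjusted p = 0.228). Over the days Pparg was called higher in P cells (log2 ratio 1.89, SE 0.27, edgeR adjusted p = 0.00433). In C cells its log2 ratio over the days was 0.96 (SE 0.26, edgeR adjusted p = 0.0369), short of the size threshold.

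Acute-phase and cytokine genes, another class with C/EBPβ and C/EBPδ sites in textbook accounts, moved with induction in both kinds of cell. Of 17 tested, 11 rose and 3 fell in C cells, and 7 rose and 5 fell in P cells, against 10.7% called higher and 9.68% lower among all genes in C cells, with 7.65% and 10.4% for P cells. Complement C3 rose in C cells from 6.73 and 6.11 to 635 and 753 CPM, and in P cells from 3.51 and 4.21 to 141 and 134 CPM, and it was lower in P than in C cells at day 1 (log2 ratio −2.33, SE 0.16, edgeR adjusted p = 0.00131). At day −2, 3 of the 17 were higher and 1 lower in P cells, against 4.83% and 2.15% of all genes. Haptoglobin (Hp), a plasma haemoglobin scavenger, stood at 0.199 and 0.133 CPM in C cells and at 3.67 and 3.21 CPM in P cells (log2 ratio 4.36, SE 0.29, edgeR adjusted p = 0.00142). Its second C value was at the limit of 3 counts per library, so the size of this ratio is uncertain. Ptx3, a secreted pentraxin of innate immunity, stood at 23.5 and 23.3 CPM against 366 and 166 CPM (log2 ratio 3.51, SE 0.39, edgeR adjusted p = 0.00483). The median of the list at day −2 was 1.16, or 0.61 with 1 gene that was at 0 counts in a condition set to its bound. At day 1, 1 of the 17 was higher and 3 were lower in P cells, against 1.83% and 2.23% of all genes.

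The integrated stress response list holds 36 tested genes that ATF4 and CHOP act with or on, and Cebpb is itself one of them. At day −2, 7 were higher and 0 lower in P than in C cells, against 4.83% and 2.15% of all genes. Herpud1, a component of endoplasmic reticulum protein disposal, stood at 27.6 and 29.6 CPM in C cells and at 71.8 and 60.1 CPM in P cells (log2 ratio 1.21, SE 0.17, edgeR adjusted p = 0.0106). Vldlr, a lipoprotein receptor on the list, stood at 4.82 and 6.07 CPM against 16.5 and 19.98 CPM (log2 ratio 1.74, SE 0.19, edgeR adjusted p = 0.00435). Over the days 1 of the 36 rose and 7 fell in P cells, against 7.65% and 10.4% of all genes, and 3 rose and 1 fell in C cells, against 10.7% and 9.68%. Nupr1, a stress-induced chromatin protein, fell in P cells from 20.7 and 24.4 to 6.97 and 6.40 CPM (log2 ratio −1.76, SE 0.16, edgeR adjusted p = 8.8e-04). Unlike Ddit3, Nupr1 was lower in both P libraries of day −2 than in C cells of that day, where C cells had 44.1 and 46.0 CPM. Phgdh, the entry enzyme of serine synthesis, fell in P cells from 642 and 364 to 136 and 134 CPM (log2 ratio −1.90, SE 0.27, edgeR adjusted p = 0.00441). It also fell in C cells, from 380 and 327 to 103 and 117 CPM (log2 ratio −1.68, SE 0.27, edgeR adjusted p = 0.00537). Atf4, named after its values were seen, lay between 371 and 454 CPM in all 8 libraries and was called in none of the 4 comparisons.

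Other leucine zipper factors formed a list of 23 tested genes. In C cells 8 rose and 0 fell over the days, against 10.7% and 9.68% of all genes, and at day −2 5 were higher and 0 lower in P than in C cells, against 4.83% and 2.15%. Nfil3, a leucine zipper repressor, rose in C cells from 33.1 and 31.2 to 266 and 252 CPM (log2 ratio 3.01, SE 0.23, edgeR adjusted p = 2.9e-04). Fos, a subunit of AP-1, stood at 25.7 and 38.0 CPM in C cells and at 317 and 78.3 CPM in P cells at day −2 (log2 ratio 2.63, SE 0.60, edgeR adjusted p = 0.0559). Tef, a PAR activator, stood at 18.5 and 18.8 CPM against 44.0 and 34.8 CPM (log2 ratio 1.08, SE 0.17, edgeR adjusted p = 0.0156). In P cells 1 of the 23 rose and 3 fell over the days, against 7.65% and 10.4% of all genes. At day 1, 0 were higher and 1 (Fosl1) was lower in P than in C cells, against 1.83% and 2.23% of all genes.

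Genes of nucleolar large-subunit assembly, the process of the Cebpz product, were 24 of the tested genes. Over the days 0 rose and 2 fell in C cells, and 0 rose and 4 fell in P cells. The 2 genes are 8.33% of the list, against 9.68% of all genes called lower in C cells, and the 4 genes are 16.7%, against 10.4% in P cells. Dkc1, the pseudouridine synthase of the nucleolus, fell in C cells from 113 and 104 to 52.8 and 48.6 CPM (log2 ratio −1.10, SE 0.26, edgeR adjusted p = 0.0243). Between P and C cells edgeR called 0 at either day, against 6.98% of all genes at day −2 and 4.06% at day 1. DESeq2 also called 0, and 5 had an unadjusted edgeR p under 0.05 at day −2 and 1 at day 1. Without the second P replica of day −2, edgeR called 9 of the 24 at that day.

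**Figure D5:**
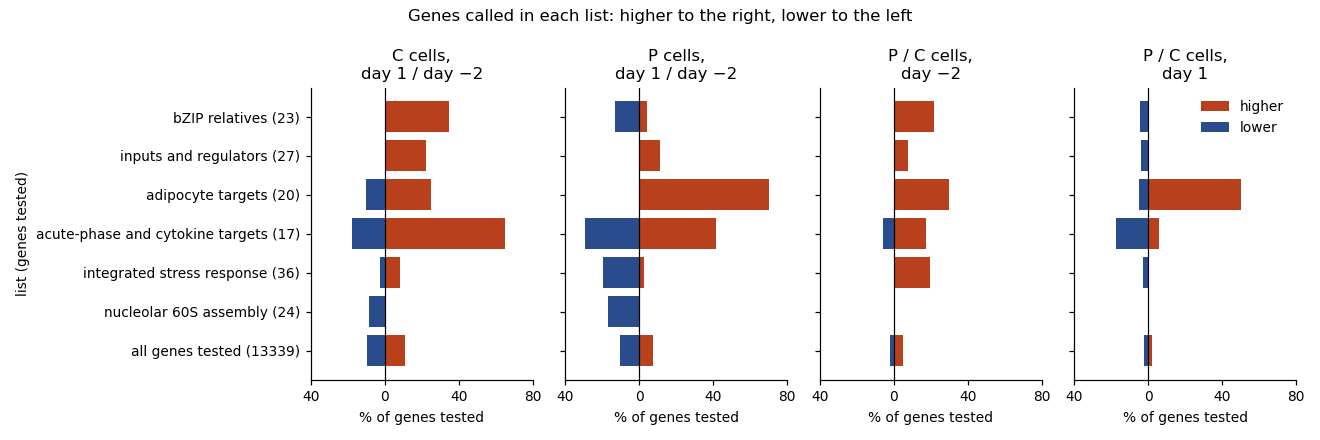
Percent of the tested genes of each list, and of all 13339 genes tested, that were called higher (bars to the right) or lower (to the left) in the 4 comparisons. At day 1 the adipocyte targets had 10 genes higher and 1 lower in P than in C cells, while the nucleolar list had 0 in either direction.

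The genes whose pattern over the 8 libraries lay closest to each member were found by the root mean square distance of their centred log2 CPM, among 10904 genes. For Cebpa they were Nbl1, a secreted BMP antagonist (distance 0.236), Clec14a (0.241) and the orphan nuclear receptor Nr4a3 (0.256). For Cebpb they were Sash1 (0.119), Thsd1 (0.146) and Znfx1 (0.148), and for Cebpd the interferon-stimulated Ifi27 (0.303) and Cmpk2 (0.325). Cebpg lay closest to the circadian activator Clock (0.101), Dnajc18 (0.107) and Tmx2 (0.109), and Cebpz to the DNA repair gene Brca1 (0.0603), Prdm10 (0.0795) and Fnbp1l (0.0836). The nearest named genes to Ddit3 were Aoc3 (0.132), an amine oxidase of adipose tissue, and Slc39a13 (0.138), a zinc transporter. Among the members themselves, Pearson's r over the 8 libraries was 0.977 for Cebpb and Cebpd, 0.976 for Cebpa and Cebpb, and 0.965 for Cebpa and Cebpd, while it was −0.900 for Cebpb and Cebpz and −0.779 for Cebpg and Ddit3. These values describe 8 libraries of 4 conditions that differ in shRNA, day or both, with the replicas of a condition sharing both. They were not tested.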

How the data were processed

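RNA of 3T3-L1 cells (8 libraries, 4 conditions, 2 replicas each) was sequenced on the Ion Torrent platform. The authors removed artefact reads, aligned the rest to mm9 with TopHat2 version 2.0.9 and counted reads per gene in R with Bioconductor packages. The deposited values are raw counts for 24013 NCBI gene IDs, not normalised. DESeq, which the submitters' processing notes name, was used by the authors for their own comparisons. Strand use and the handling of multiply mapped reads are not given in the sources used here, so reads shared with overlapping genes (Spidr for Cebpd, Cebpzos for Cebpz, Mbd6 and Mars1 for Ddit3) are uncertain. No molecular identifiers are described, so counting intervals cover counting error only.

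Symbols were matched through RefSeq GRCm38.p6, used for names and neighbours only (23929 of 24013 IDs). Groups and replica numbers came from the sample titles. Counts were filtered with filterByExpr (13339 genes left), scaled by TMM and fitted with edgeR 4.0.16 (R 4.3.3) with 1 mean per condition over all 8 libraries. Comparisons were day 1 against day −2 in each kind of cell, P against C cells at each day, and their interaction, by the quasi-likelihood test with Benjamini-Hochberg adjustment. Log2 ratios are fitted coefficients and log2 CPM values used a prior count of 2. The floor of 3 counts equals 0.107 to 0.160 CPM. The procedure was tested on simulated data first.

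The members and the gene lists were chosen with earlier results of these data known. Besides the members and Pknox1, at most 2 higher and 2 lower called genes per list and comparison were named, by lowest p among genes with a mean of at least 50 counts, together with the 3 genes closest to each member in pattern, of which 1 is not reported here. Alternatives were DESeq2 1.42.0, other scalings, filters and thresholds, fits of the compared conditions alone, a replicate block and each library left out. Levels were not compared between genes, and no promoter or protein sequence is shown, because transcript lengths and sequences on mm9 were not used here.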

Additional observations from a re-analysis of the deposited data

Results flagged for a closer look

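For 3 genes, induction acted unequally on P and C cells by a direct test of the difference. By edgeR's interaction test with Benjamini-Hochberg adjustment, Cebpa differed by −2.62 on the log2 scale (adjusted p = 0.0836), Cebpd by −2.53 (adjusted p = 0.0617) and Ddit3 by −1.48 (adjusted p = 0.0445). For Cebpa and Cebpd both P libraries of day −2 lay above both C libraries of that day. For Ddit3 P cells were above C cells at day −2 and below them at day 1 in all replicas. Leaving out any 1 library other than those of P cells at day −2 ended all 3 calls, with adjusted p between 0.168 and 0.413.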

How the results depend on the processing

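Over the 4 comparisons and the interaction, the alternatives gave 503 values of single members with the same direction and call, 45 that lost the call and 10 that gained one, and no direction of a called value turned. With only the compared conditions in the fit, the number of members called was 1 in P cells over the days and 0 between P and C cells at day −2, in place of 3 each, with fewer libraries to estimate the spread. Without the size threshold it was 1 between P and C cells at day 1. For the interaction it was 1 at an adjusted p under 0.05. Leaving out single libraries gave 3 members in C cells over the days, 2 to 3 in P cells, 0 to 4 for P against C cells at day −2, 0 at day 1 and 0 to 6 for the interaction, where the lone replica left was assumed to vary like those of the other conditions. The number of neighbouring steps in the order of levels that passed was 6, then 3 with the compared conditions alone and 2 to 11 with single libraries left out. Library totals in place of TMM took the median log2 ratio of all genes from near 0 to between −0.18 (P against C cells at day −2) and 0.29 (the interaction), and Cebpb in P against C cells at day −2 to 0.86, under the size threshold. The planned change of transcript length was not run. The causes of the changes between alternatives, those of the smaller fits included, were not tested.

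Over all genes, 5 of 6 correlations between the deviations of replicas with the same number were negative, from −0.355 to 0.209. Over genes with a mean log2 CPM above 5 the correlations ran from −0.752 (P cells of day −2 and C cells of day 1) to 0.438 (C and P cells of day −2). Not all were stronger there. That between P cells of day −2 and of day 1 was −0.192, against −0.275 over all genes. That between C and P cells of day 1 went from −0.153 over all genes to 0.137. What the replicate numbers stand for was not tested. With a replicate block, 0 members were called for the interaction (adjusted p = 0.176 for Cebpa, 0.134 for Cebpd and 0.111 for Ddit3 by edgeR), and the counts of members called in the other comparisons were as without it. A block with the P numbers of day 1 crossed, added after seeing the data, also gave 0, and one with all day 1 numbers crossed gave 3.

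List counts moved more: 370 were within 1.5 times the reported count and 188 were not. For uninduced P against C cells the stress response list had 7 genes called (0 to 13 over the alternatives), leucine zipper factors 5 (0 to 16), adipocyte targets 6 (2 to 10) and acute-phase genes 4 (1 to 10). At day 1 adipocyte targets had 11 (5 to 12) and acute-phase genes 4 (1 to 9). Over the days in P cells, adipocyte targets had 14 (7 to 16), the stress list 8 (4 to 15) and the nucleolar list 4 (0 to 12), and in C cells acute-phase genes had 14 (8 to 15) and leucine zipper factors 8 (4 to 10). The low ends of 5 and 7 for adipocyte targets came from the stricter filter, which dropped genes under 10 counts in some library. So did the low end of 8 for acute-phase genes in C cells. The nucleolar list had 0 for uninduced P against C cells (0 to 9). Cebpa had only 19 counts in each library of uninduced C cells.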

Other observations

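Signals that act upstream of the C/EBP genes, and regulators of their products, formed a list of 27 tested genes. In C cells 6 rose and 0 fell over the days, and in P cells 3 rose and 0 fell, against 10.7% and 7.65% of all genes called higher. At day 1, 1 (Trib1) was lower in P than in C cells, against 2.23% of all genes. At day −2, 2 (7.41% of the list) were higher in P than in C cells, against 4.83% of all genes. Stat3, a cytokine-activated transcription factor, stood at 145 and 131 CPM in C cells and at 323 and 290.1 CPM in P cells (log2 ratio 1.15, SE 0.15, edgeR adjusted p = 0.00942), and at day 1 at 451 and 533 CPM against 408 and 404 CPM. Egr2, an early growth response factor, stood at 3.87 and 4.70 CPM in C cells and at 16.8 and 8.88 CPM in P cells at day −2 (log2 ratio 1.58, SE 0.32, edgeR adjusted p = 0.0394). Trib1, which directs C/EBPα protein to degradation, rose in C cells from 55.6 and 54.4 to 182 and 147 CPM. It reached 77.1 and 76.0 CPM in P cells at day 1, lower than in C cells (log2 ratio −1.10, SE 0.15, edgeR adjusted p = 0.0144).

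Spidr, which overlaps Cebpd in GRCm38.p6, stood at 28.8 and 25.3 CPM in C cells and at 53.8 and 31.9 CPM in P cells at day −2, and between 48.5 and 52.6 CPM at day 1. Its first P replica of day −2 was the higher one, as for Cebpd. P cells relative to C cells had a log2 ratio of 0.66 for Spidr at day −2 (edgeR adjusted p = 0.161). The part of shared reads in the Cebpd counts was not tested. The family sum was 276 and 283.5 CPM in C cells and 473 and 388 CPM in P cells at day −2, and 495 to 548 CPM in all 4 libraries of day 1.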
